A study of Peromyscus maniculatus with 10 samples.

Results

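Stretches of the deer mouse genome in which many neighbouring genes gave almost no reads in cultured fibroblasts were examined. A gene was called silent when its mean raw count was below 1 over the 10 libraries, and a silent block was a run of at least 8 consecutive silent genes on a numbered chromosome, with genes ordered by their start. The members were thus chosen by their raw counts, and every count of a member below, with any relation between such counts, is a description with no test. Of the 23570 genes on the 23 numbered chromosomes, 7221 were silent, or 30.6%. The rule gave 97 blocks with 1569 member genes, out of 25394 genes in the whole table. The cells were primary ear fibroblasts of 10 male Peromyscus maniculatus bairdii of the BW stock, an outbred colony kept in captivity, taken at 3 weeks of age. Each animal gave 1 library of total RNA, the labels name no treatment of the cells, and the 10 libraries form a single group, so that no groups were compared. The libraries held between 20811334 and 31912526 counts on genes.

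The table lists Ensembl identifiers without gene names, and 0 of the 1569 members were matched to a symbol. The match was tried with a RefSeq table of another assembly, which carries no Ensembl identifiers. Genes are thus given here by identifier, position on HU_Pman_2.1 and exon structure. Whether the cells carry fibroblast markers was not analysed here for the same reason. As background, genes that a fibroblast does not use often belong to large families that arose by tandem duplication and lie side by side. Olfactory receptor genes are the best known of these, with a coding sequence in a single exon and a use in sensory neurons of the nose. The variable segments of immunoglobulins and T cell receptors are arrays of short genes that are rearranged in lymphocytes. Small nucleolar RNAs and microRNAs are short transcripts that can also lie in arrays. To which family a member belongs was not determined, and the structures below are those of the annotation.

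Most silent genes did not lie in blocks. The 7221 silent genes fell into 3608 runs, of which 2324 were a single gene between expressed neighbours, and the 1569 members were 21.7% of the silent genes and 6.66% of all genes on the numbered chromosomes. Just outside the limit on length lay 26 runs of exactly 7 genes with 182 genes, and just inside it lay 12 runs of exactly 8. The blocks held a median of 12 genes, with quartiles of 9 and 17, and 42 blocks had at most 10. The largest had 79. The 21 blocks of at least 20 genes carried 715 members, or 45.6% of them, and the 10 largest carried 468.

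**Figure D1:**
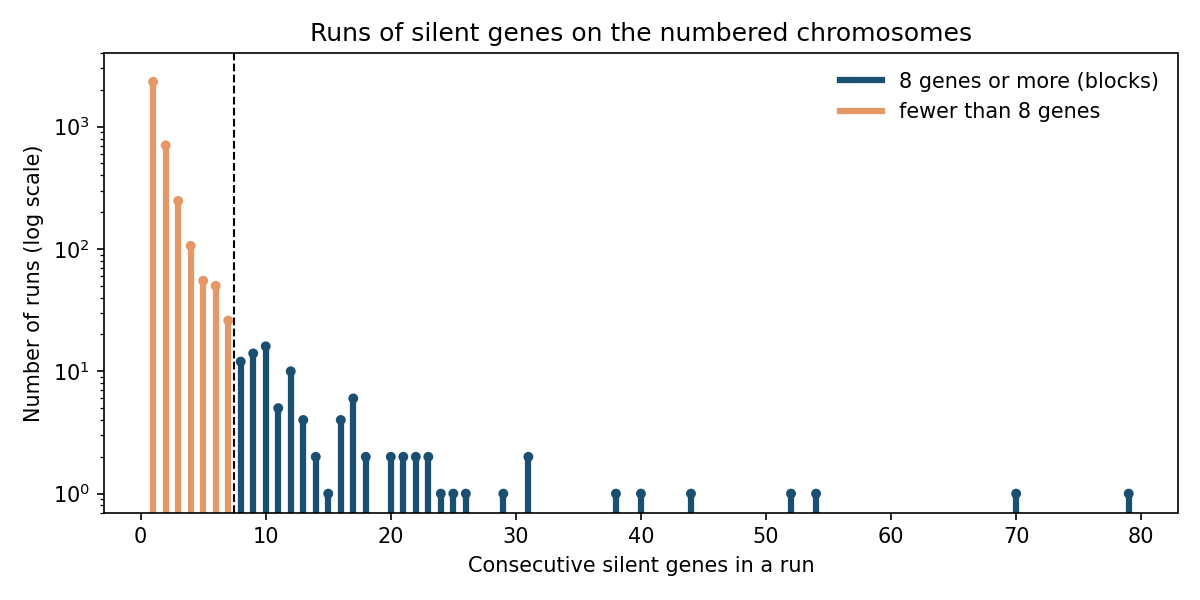
Number of runs (log scale) against the number of consecutive silent genes in a run, over the numbered chromosomes, with runs of 8 genes or more in blue. The runs thin out from 2324 single genes to 26 runs of 7, and the blocks extend to 70 and 79 genes.

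The blocks held more genes per Mb than the chromosomes as a whole. They spanned 72.2 to 4369 kb with a median of 403 kb, and together they covered 55.1 Mb, or 2.40% of the chromosome length between the first and the last genes. Within blocks there were 28.5 genes per Mb, against 10.3 over the numbered chromosomes. The median gap between neighbouring genes differed less, at 15.9 kb in blocks and 17.45 kb over all genes. Members were also shorter, with a median gene span of 0.945 kb against 7.93 kb. The span of a block ends at its outer genes and leaves out the gaps beyond them. The widest block, on chromosome 9 from 83655153 to 88024114, held 10 genes in 4369 kb, or 2.29 genes per Mb. The next widest, on chromosome 4 from 18746882 to 21755673, held 9 genes in 3009 kb. At the other end, the densest block lay on chromosome 14 from 78550972 to 78623139 and held 22 genes in 72.2 kb, or 304.8 genes per Mb. A block of 13 genes on chromosome 3 from 70673309 to 70758144 was the next densest, with 153 genes per Mb. The third, with 120 genes per Mb, held 20 genes on chromosome 1 from 95669326 to 95835926.

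**Figure D2:**
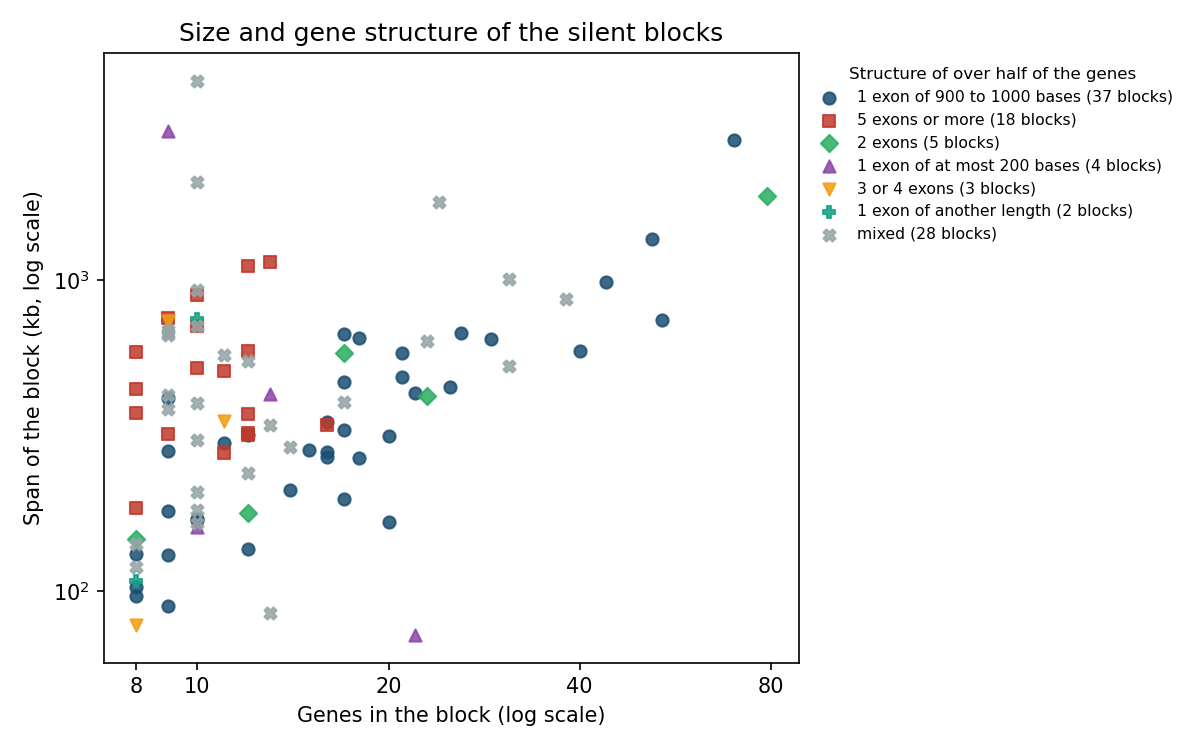
Span of each of the 97 blocks in kb against its number of genes (both axes logarithmic), with the marker showing the exon structure that most of its genes share. Blocks led by genes of 1 exon and 900 to 1000 bases reach 70 genes, while the 18 blocks led by genes of 5 exons or more have at most 16 genes.

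Blocks were spread unevenly over the chromosomes. They lay on 19 of the 23 numbered chromosomes, and chromosomes 15, 16, 19 and 20 had 0. Chromosome 1 carried 27 blocks, whose members were 12.9% of its 2903 genes, and chromosome 4 carried 9 blocks with 254 members, or 13.6%. The highest share, 15.4%, was on chromosome 14, where 4 blocks held 122 genes. The share of silent genes ran from 21.6% on chromosome 22 to 37.4% on chromosome 14, and it was 30.4% on chromosome 16, which had no block.

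Many blocks were near one another. When blocks at most 2 Mb apart were joined, 56 of the 97 blocks fell into 19 groups with 978 members, and the other 41 stood alone. The largest group was on chromosome 4 from 58043871 to 66222146, where 5 blocks with 202 members were spread over 8.18 Mb. Between these blocks lay 51 other genes, of which 33 were not silent and 15 averaged 100 counts or more. Of the 202 members, 165 had a single exon of 900 to 1000 bases. The second group, on chromosome 1 from 94492253 to 99440341, had 8 blocks and 162 members, of which 134 had this structure, and 64 other genes, of which 26 averaged 100 counts or more. Well expressed genes thus lay between the silent blocks of both groups.

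The rule did not use exon structure directly, but it is not independent of it. Its limit is on raw counts, which are not scaled by exon length, so genes with few exon bases fall below it more easily. Of the 2449 genes with a single exon of at most 200 bases, 80.3% were silent, against 12.4% of the 12975 genes with 5 exons or more. The part of this in the shares below was not tested. A single exon was annotated for 896 of the 1569 members, or 57.1%, for 50.4% of the 5652 silent genes outside blocks and for 22.5% of all genes on the numbered chromosomes. The median member had 930 exon bases in a gene of 0.945 kb. Silent genes outside blocks had a median of 363 exon bases, and all genes had 984 exon bases in a gene of 7.93 kb. Most single exons of members were close in length, with 661 of the 896 between 900 and 1000 bases. These 661 genes were 42.1% of the members, while genes of this structure were 3.61% of the silent genes outside blocks and 3.94% of all genes. Of the 928 such genes on the numbered chromosomes, 865 were silent, or 93.2%, and 661 were members of blocks, or 71.2%. The limits of 900 and 1000 bases were set after the lengths had been seen, and these shares are descriptions with no test.

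**Figure D3:**
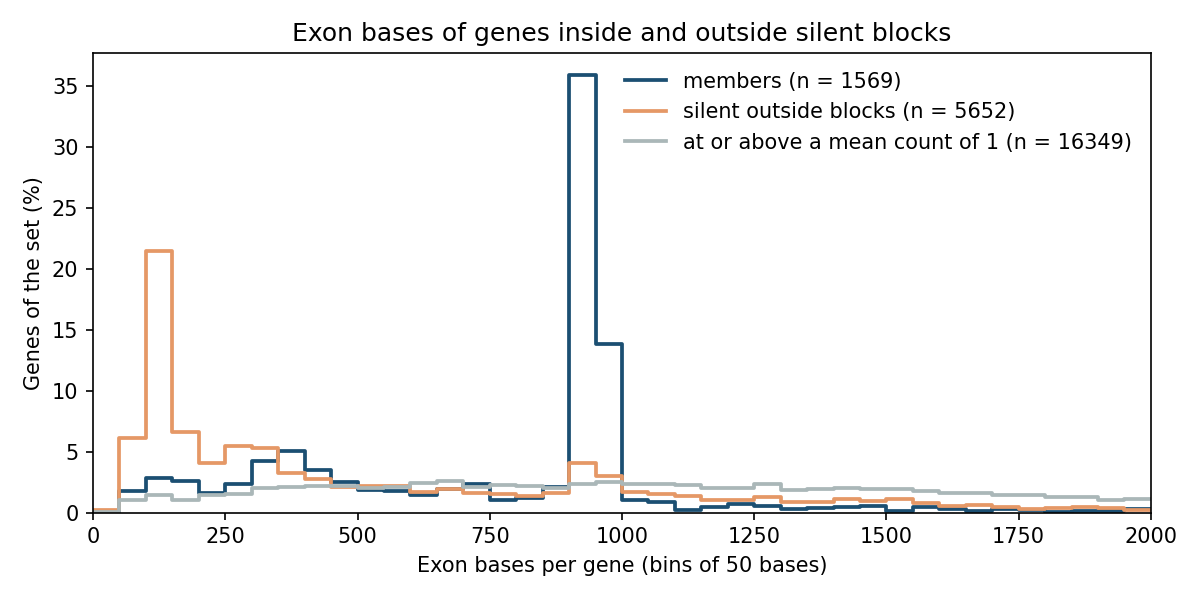
Share of genes (%) by exon bases per gene in bins of 50 bases, for members, silent genes outside blocks and genes at or above a mean count of 1. Of the members, 35.9% fall between 900 and 950 bases and 13.8% between 950 and 1000; genes of 2000 bases or more, 2.61%, 5.01% and 27.1% of the sets in this order, are not drawn.

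Among the remaining members, 260 had 2 exons with a median of 453 exon bases, 174 had 3 or 4 exons, and 239 had 5 exons or more with a median of 975. Single exons of at most 200 bases, the size of many small RNAs, belonged to 102 members, or 6.50%, and to 33.0% of the silent genes outside blocks. Neighbours within a block also resembled each other. Of 1472 pairs of neighbouring members, 64.3% had exon lengths within 10% of each other, against 26.6% of 2141 pairs of neighbouring silent genes outside blocks and 14.3% of all 23547 neighbouring pairs. The same number of exons was recorded in 56.9%, 39.5% and 14.4% of the pairs, and the same strand in 73.1%, 59.1% and 52.1%. The reads of similar neighbouring copies may not map to a unique place, and the authors counted uniquely mapped reads, so that the counts of such members are uncertain. The part of this in the low counts was not tested. Exons of 5 members overlap those of another gene.

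By the structure that most of its genes shared, 37 blocks were blocks of single exons with 900 to 1000 bases. These held 749 genes on 12 chromosomes, with a median of 17 genes in 314 kb. Genes of 5 exons or more led 18 blocks, which were smaller, with a median of 10.5 genes, and less dense, with a median of 20.9 genes per Mb against 52.8. Genes with 2 exons led 5 blocks, short single exons led 4, genes with 3 or 4 exons led 3 and single exons of another length led 2. The remaining 28 blocks were mixed.

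The largest block was on chromosome 14 from 82786946 to 84650255, with 79 genes in 1863 kb, all on the minus strand. Its genes were short, with 108 to 804 exon bases and a median of 378, and 40 had 2 exons while 29 had a single exon. None had a single exon of 900 to 1000 bases. The 24 counts on this block were spread over 6 libraries, with 0 in the lowest library, a median of 1 and 13 in the library of animal #36787. Most counts of the block were thus from a single animal.

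The next 5 blocks were all led by single exons of 900 to 1000 bases. On chromosome 4 from 58043871 to 60859183, 57 of 70 genes had this structure, 45 lay on the plus strand and 25 on the minus strand. The 36 counts on its genes ranged from 0 to 8 per library, with a median of 3.5, and came from 9 libraries. A gap of 1052 kb without an annotated gene lay within this block. The second of chromosome 4 by number of genes, from 62229033 to 62972772, had 46 of 54 genes of this structure in 744 kb, and 0 to 2 counts per library with a median of 0.5. The third by number of genes, from 64714261 to 66062515, had 44 of 52, and 46 of its genes shared the minus strand. It drew 7 counts in all, of which 3 were from animal #36764. On chromosome 7 from 33603377 to 34585281, the structure was shared by 36 of 44 genes, and the counts per library were 0 to 2 with a median of 1. On chromosome 1 from 94847381 to 95436619, it was shared by 33 of 40 genes, which were divided evenly between the strands, and the counts were again 0 to 2 per library. In each of these blocks but that of 70 genes, no library had more than 3 counts.

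The other large blocks were of different make-up. On chromosome 3 from 54257552 to 55125856, 38 genes had 103 to 5277 exon bases and up to 43 exons, and 16 had 5 exons or more. All 4 counts on them were from animal #36787. A block of 31 genes on chromosome 9 from 43798300 to 44800929 had 14 genes of 2 exons and a median of 453 exon bases, and it received 5 counts from 3 libraries. Another of 31 genes, on chromosome 8 from 84927218 to 85454824, had 13 genes of 5 exons or more and 10 single exons outside the 900 to 1000 range, with 24 genes on the minus strand. It received 20 counts from 9 libraries, with a median of 1.5 and the highest number, 6, in animal #36905. The tenth block, on chromosome 12 from 44066819 to 44710923, was again of single exons of 900 to 1000 bases, in 27 of 29 genes, and 4 of its 9 counts were from animal #36787.

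The densest block was 1 of the 4 led by short single exons. Its 22 genes on chromosome 14 each had a single exon of 67 to 111 bases, and 20 lay on the plus strand. They received 25 counts from 7 libraries, with 0 in the lowest library, a median of 2.5 and 8 in animal #36798. This is 13.9 counts per exon kb over all libraries, against 0.638 over all members and 5.95 over members with a single exon of at most 200 bases. Division by so few exon bases raises the value. Without it, the comparison is 25 counts on 22 genes against 814 counts on the 1569 members. How well the libraries capture genes this short was not tested. The gene next to its lower edge, ENSPEMG00000014708, had a mean count of 520.7, and that next to its upper edge, ENSPEMG00000005080, a mean of 3.00.

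A block that lay wholly on a single strand was seen in 13 cases with 196 genes, among them the 79 genes on chromosome 14. The next in size were 15 genes on the plus strand of chromosome 3 from 55973018 to 56256878, which were led by single exons of 900 to 1000 bases, and 12 genes on the minus strand of chromosome 8 from 100710827 to 101032808, which were led by genes of 5 exons or more. At least 90% of the genes shared a strand in 18 blocks.

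The genes next to the blocks were often low as well. Of 194 block edges, 193 had a flanking gene on the same chromosome, and these were 185 distinct genes, each averaging 1 count or more by the rule. Their median level was 2.33 CPM per exon kb, against 11.1 for all 16349 genes that are not silent. With other limits it was 1.06 (mean below 0.5), 4.48 (mean below 2), 1.54 (at least 12 genes), 3.51 (thinned libraries), 7.88 (mean below 5) and 0.0084 (no count in any library), so that its size depends on the limit. The level of all genes that are not silent is given for the main limit only. CPM per exon kb is the count scaled to library size (CPM) and divided by the exon length, averaged over animals. A mean count under 10 was recorded for 66 of the 185, or 35.7%, against 18.4% of the 16349. An average of 1000 counts or more was recorded for 29, or 15.7%, against 32.1%. Both flanking genes averaged 100 counts or more for 20 of the 96 blocks that had them, and 1000 or more for 4. Both were under 10 for 14. From the second to the tenth gene outward from an edge, 39.3% to 49.5% of the genes were silent, against 30.6% of all genes. At these positions 8.29% to 17.3% belonged to another block, while 6.66% of all genes on the numbered chromosomes were members. These levels and shares are descriptions with no test, since the same counts chose the blocks and their flanking genes.

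**Figure D4:**
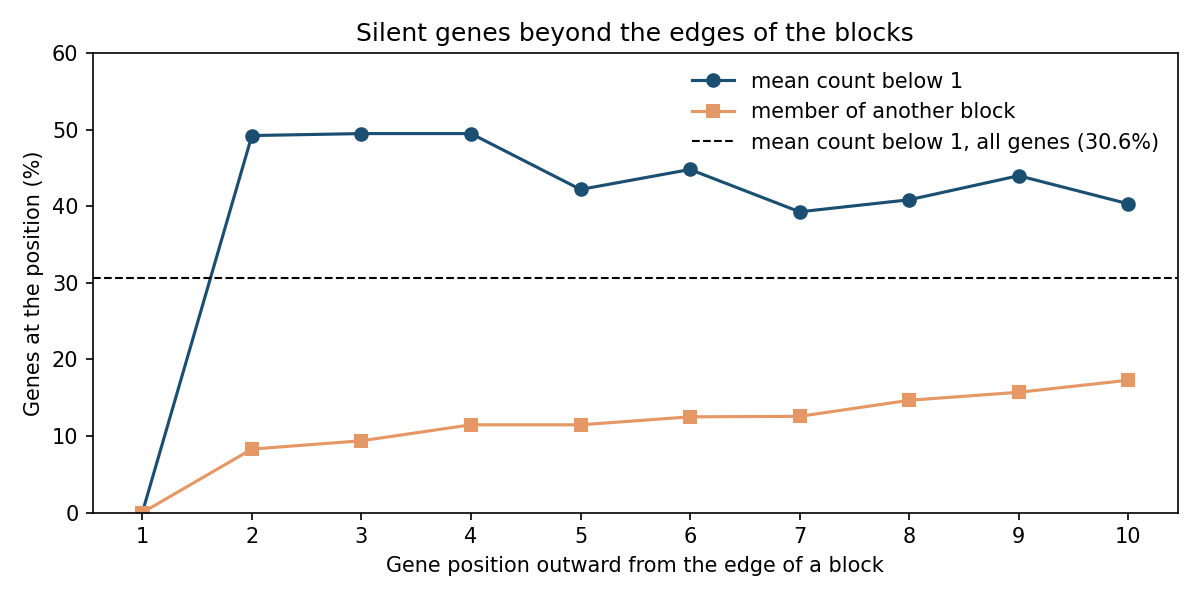
Share of genes (%) with a mean count below 1 and share that are members of another block, by gene position outward from the 193 edges with a flanking gene. Position 1 is not silent by the rule, and positions 2 to 10 lie at 39.3% to 49.5%, above the line for all genes at 30.6%.

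For some blocks, the next gene in order beyond an edge nevertheless had many counts. Flanking genes are next in gene order and can lie far from the edge. CPM were not divided by exon length here. On this scale long genes count for more, and the order of genes can differ from that per exon kb. The highest flanking gene was ENSPEMG00000012788, with 29 exons on chromosome 17 from 26928472 to 27035225. The block of 10 genes that it flanks starts at 27375605. This gene had 917 CPM in the lowest library, a median of 1259 and 1713 in the highest, and a mean of 1271 ± 209 (SD, n = 10). ENSPEMG00000012132, on chromosome 3 from 143953944 to 143974748, had 147 to 290 CPM with a median of 183, and a mean of 193 ± 44.2 (SD, n = 10). Its span reaches past the start, at 143966369, of the block of 9 genes that it flanks. ENSPEMG00000013093, on chromosome 4 from 61649274 to 61669158, is the next gene after the block of 70 genes, which ends at 60859183. The level of this gene in the animals was 111 to 121 CPM with a median of 114 and a mean of 115 ± 3.54 (SD, n = 10). The 10 flanking genes highest on this scale had means of 97.6 to 1271 CPM.

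Pairs of blocks were in 8 cases separated by a single gene, and 6 of these separating genes had a mean count below 10. They differed in how their counts fell among the animals. ENSPEMG00000022962, with a single exon of 513 bases on chromosome 12 from 72940524 to 72941036, had 42 counts in animal #36789, 1 each in animals #36787 and #36905 and 0 in the other 7. Without animal #36789 it would thus be silent. ENSPEMG00000018082, a single exon of 906 bases on chromosome 4 from 66081975 to 66082880, had 7 counts in animal #36787, 1 in each of 4 animals and 0 in 5. ENSPEMG00000024959, on the same chromosome from 64701813 to 64702739 and of 927 bases, had 5 counts in animal #36746, 4 in #36905, 3 in #36764, 1 in #36906 and 0 in 6. By contrast, ENSPEMG00000004540, with 2 exons on chromosome 18 from 46078757 to 46079877, had 2 to 4 counts in 9 animals and 0 in animal #36746. A separator of another kind was ENSPEMG00000006625, with 2 exons on chromosome 1 from 94840323 to 94844474, which had 826 to 2062 counts with a median of 1346.5. It lies between a block of 14 and a block of 40 genes.

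Counts on the members were few. In all 10 libraries together the 1569 members received 814 counts, out of 275625671 on all genes. No count in any library was recorded for 1201 members, or 76.5%, against 50.7% of the silent genes outside blocks and 17.2% of all genes on the numbered chromosomes. For a gene with 0 counts in all libraries, the expected count may still be up to 3 (an approximate 95% upper bound), or 0.0109 CPM over the libraries. This bound covers counting error only. A total of 193 members had 1 count and 76 had 2. Of the 368 members with a count, 228 had counts from a single library, 11 had counts from at least 5 libraries, and the most for any member was 7 libraries. The 70 genes of 6 blocks had no count at all. Per exon kb, members received 0.638 counts over all libraries and silent genes outside blocks 2.64. Among members, the value was 0.275 for single exons of 900 to 1000 bases and 5.95 for those of at most 200 bases. Division by exon length widens this difference, since the counts were 171 on 661 genes and 74 on 102 genes. These values follow the choice of the members by their counts and were not tested.

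At the limit of 1 on the mean count, 4 members had 9 counts in all. ENSPEMG00000023532, on chromosome 23 from 44794452 to 44801093, had 5 of them in animal #36906, 2 in #36798 and 1 each in #36787 and #36797. In ENSPEMG00000025091, on chromosome 2 from 106317656 to 106318201, 4 were from animal #36764. ENSPEMG00000027214, on chromosome 8 from 11793950 to 11795624, had 4 in #36907 and 3 in #36798. In ENSPEMG00000030582, on chromosome 12 from 73267938 to 73268195, 5 were from #36789. Just beyond the limit, 5 flanking genes had 10 counts in all, among them ENSPEMG00000008741, with 64 exons on chromosome 3 from 54097049 to 54236268, which had 0 to 3 counts with a median of 1. ENSPEMG00000005351, on chromosome 8 from 12039841 to 12043889, had all of its 11 counts in animal #36789. The highest count of any member in a library was 7, for ENSPEMG00000026934 on chromosome 12 from 73290353 to 73290610, and it was also in animal #36789, with 0 in the other 9. The next highest was 6, again in animal #36789, for ENSPEMG00000013220, with 23 exons on chromosome 9 from 47316832 to 47341868. Of the 66 members with at least 4 counts, 13 had most of them in a single library.

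The counts on members differed between the libraries. Members with a count numbered 36 in animal #36907, 38 in #36798, 40 in #36906, 51 in #36797, 53 in #36764, 65 in #36772, 73 in #36905, 81 in #36746, 82 in #36789 and 114 in #36787. The mean was 63.3 ± 24.8 (SD, n = 10), or 4.03% of the members. As a share of the library, members received 1.47 CPM in animal #36907 (exact 95% interval 1.08 to 1.96) and 5.53 CPM in animal #36789 (4.56 to 6.63), with 5.45 in animal #36787 and a mean of 3.07 ± 1.48 (SD, n = 10). The intervals cover counting error only, and with 1 library per animal the spread between libraries of the same animal was not measured. Silent genes outside blocks received up to 49.6 CPM, with a median of 34.7 and a mean of 36.2 ± 7.87 (SD, n = 10).

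**Figure D5:**
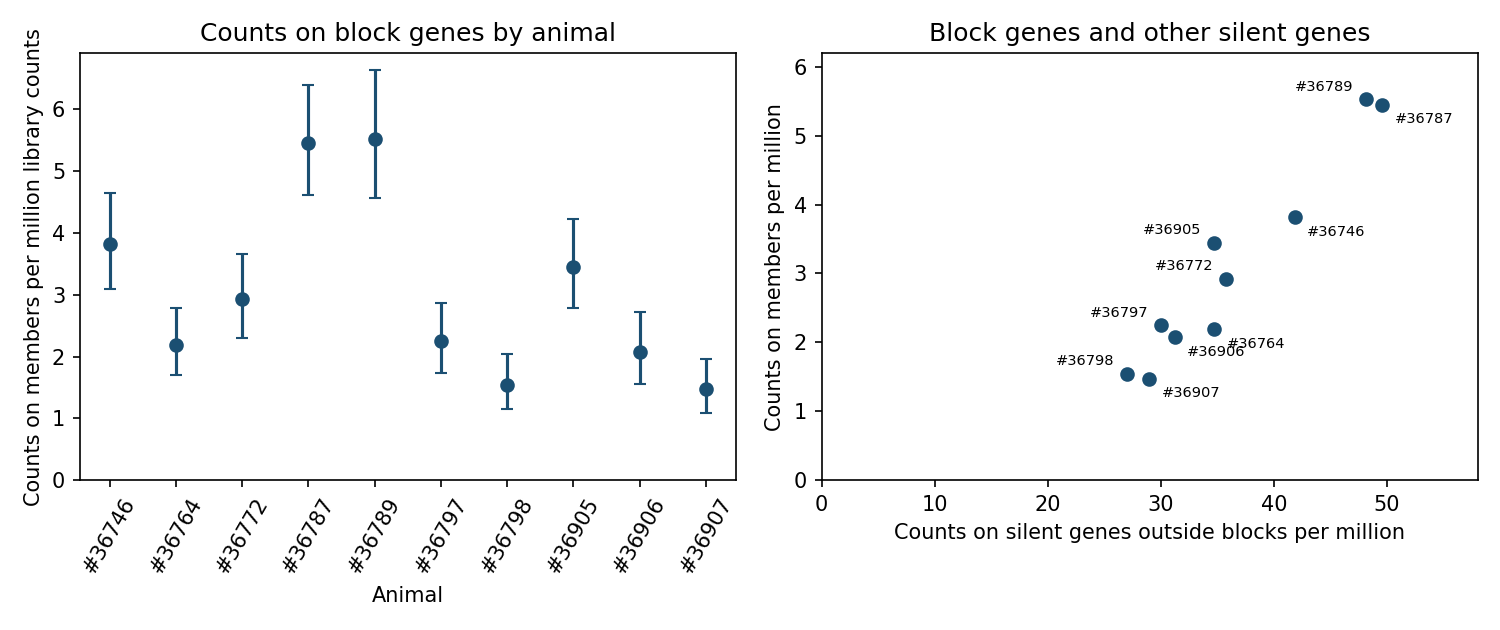
Left, CPM on members for each animal, with exact 95% binomial intervals that cover counting error. Right, the same values against the CPM on silent genes outside blocks, where animals #36787 and #36789 are highest on both axes and #36907 and #36798 lowest.

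Libraries with more counts on members also had more on the other silent genes, in a description over the 10 animals. The CPM on members and on silent genes outside blocks had a Pearson's R of 0.97 and a Spearman's rho of 0.89. Both shares have the library total in common, and both sets were chosen by counts in these libraries, so no test is given. R was 0.89 once animals #36787 and #36789, which lie farthest out, were dropped with the members kept as they are, and 0.92 with the blocks found again without them. The identification numbers fall into 2 series, and R was 0.98 over the 7 animals of the first with blocks found again in them, while the second has too few animals for a value. For the counts themselves, in place of shares, R was 0.85.

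Library size and the number of members with a count had an R of -0.49 and a rho of -0.56, again with no test. Without animals #36789 and #36907 R was -0.32 for the same members. With blocks found again, it was -0.74 without animal #36787 and -0.47 over the 7 animals of the first series. The share of counts on members has library size as its denominator. For this share R was -0.71 and rho was -0.64, while R was -0.40 without animals #36789 and #36907 for the same members, -0.60 over the first series with blocks found again and -0.51 with counts in place of shares. After every library was thinned to the smallest total, the members with a count were 82 in animal #36789, 88 in #36787 and 26 in #36907.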

How the data were processed

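RNA of primary ear fibroblasts from 10 animals was sequenced as 1 library per animal. The authors trimmed reads (Trim Galore 0.4.5), aligned them to HU_Pman_2.1 (STAR 2.7.2b), kept unique hits and counted read pairs on genes of Ensembl release 98 (featureCounts 1.5.3, no strand option). The deposited values are raw counts per gene, not normalized. All 10 count columns were matched to animals by sample number, and 0 per-sample columns were left unassigned. Exon numbers were obtained after joining overlapping exons of a gene. Runs of silent genes were found, and all values derived, in Python 3.11.15 (pandas 2.3.3, scipy 1.17.1, numpy 2.4.6), with figures drawn in matplotlib 3.10.9. CPM are counts scaled to the library total. The kit keeps strand, which the counting did not use, so overlapping genes on opposite strands cannot be told apart. Permutation tests had been planned for relations between libraries, and they are not given because the same counts chose the members. edgeR 4.0.16 and DESeq2 1.42.0 under R 4.3.3 gave scaling factors for alternatives, and no test between groups was made. The run finding was also tried on simulated data, and the outcome is not given here.

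The members, the structural classes and the lists were chosen with earlier results of these data known. Blocks named in the text are the 10 with the most genes, the 3 widest and the 3 densest, together with groups of blocks, and the next 2 blocks in size on a single strand, chosen after their values were seen. Genes named are taken from 4 lists of 10, those just inside and just outside the limit on the mean count, those with the highest count in a library and the highest flanking genes, with separating genes, the genes beside the densest block and ENSPEMG00000013093, eighth of its list, picked after their values were seen. Gene families and cell type markers were not analysed, since 0 of 37364 genes in the RefSeq table of HU_Pman_BW_mat_3.1 carry an Ensembl identifier. Sequences were not analysed here. The alternatives were other limits on run length and mean count, scaled or thinned counts, another gene order, removal of overlapping genes, addition of the X chromosome and animals left out.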

Additional observations from a re-analysis of the deposited data

Results flagged for a closer look

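The 10 largest blocks, the densest block and genes picked from the lists and the separating genes, 29 in all, were looked at. Other genes of the same lists and other blocks were not looked at. In 15 of the 29, the gap between the highest or lowest animal and the next, divided by the range, exceeded Dixon's 95% critical value for 10 samples. The 1 in 20 that chance would give does not apply, since these counts are mostly 0 and several of the genes were picked for a high count in a library, and the values are descriptions. The gap over the range was 0.976 for ENSPEMG00000022962, 1.00 for ENSPEMG00000026934, 0.833 for ENSPEMG00000013220, 1.00 for ENSPEMG00000005351 and 0.600 for ENSPEMG00000030582, each with animal #36789 highest. It was 0.857 for ENSPEMG00000018082 with animal #36787 highest, 0.600 for ENSPEMG00000023532 with #36906 highest, 0.50 for ENSPEMG00000025091 with #36764 highest and 0.50 for ENSPEMG00000004540 with #36746 lowest. Among blocks, animal #36787 was highest for that of 79 genes on chromosome 14 (0.692), that of 38 genes on chromosome 3 (1.00) and that of 29 genes on chromosome 12 (0.50). Animal #36764 was highest for the block of 52 genes on chromosome 4 (0.667), #36905 for that of 31 genes on chromosome 8 (0.50) and #36798 for that of 22 genes on chromosome 14 (0.50). For the 7 measures summed over all members or all other silent genes, 0 exceeded it.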

How the results depend on the processing

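The number of blocks, 97 in the main setting, was 228 with runs of at least 5 genes, 50 with at least 12 and 40 when genes had to lack a count in every library, where members numbered 527 in place of 1569, the largest block had 36 genes in place of 79, the median span was 241 kb in place of 403 and members were 13% of silent genes in place of 21.7%. The share of members with a single exon, 57.1%, was 52.1% with at least 5 genes, 62.5% with at least 12, 53.5% with a mean count below 2, 50.7% with a mean below 5 and 66.6% without any count. The median level of flanking genes, 2.33 CPM per exon kb, was 7.88 with a mean below 5 and 0.0084 without any count. The CPM on members, 3.07, was 1.68 with a mean below 0.5, 6.90 (mean below 2), 19.5 (mean below 5), 6.14 (at least 5 genes) and 1.76 (at least 12 genes), and the members with a count per library, 63.3, were 38.2, 115.6, 214.9, 125.3 and 36.2 in the same order. For library size against members with a count, R was -0.64 with at least 12 genes and -0.69 with thinned libraries, and -0.74 to -0.35 as single animals were removed. Against the share of counts on members, R was -0.56 without animals #36764 and #36789, -0.60 over the first number series, -0.51 with counts and -0.88 to -0.48 as single animals were removed. What caused these changes was not tested. The relation of members to other silent genes kept an R of 0.85 to 0.99 under all 26 alternatives run. With scaled counts (CPM, TMM or DESeq2), 1568 of the 1569 members remained, and with each animal left out 1541 to 1568. Relations could not be computed where no member has a count. No paired analysis was possible because all libraries form a single group. Genes have no names here, and a mean count below 1 is a chosen limit, below which 368 members had counts.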

Other observations

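The X chromosome, which is not numbered and was left out of the blocks above, had 498 silent genes among its 1113, or 44.7%. These formed 5 runs of at least 8 genes with 45 genes in all, or 4.04% of its genes, and the largest run had 11. A single exon of 900 to 1000 bases was annotated for 3 of the 45, all in a run of 8 genes from 22696442 to 23143086. The largest run, from 45319124 to 46111484, received 10 counts in all libraries, and that of 10 genes from 98977975 to 100186183 received 12. No count in any library was recorded for 33 of the 45 genes, or 73.3%. The difference from the numbered chromosomes was not tested.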
